A study of Homo sapiens and Mus musculus with 24 samples.

Results

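Replication-linked histone genes are the clustered genes named HIST1H, HIST2H, HIST3H and HIST4H, which encode the linker histone H1 and the core histones H2A, H2B, H3 and H4. Their members here are the rows of the LNCaP expression table whose symbol starts with one of these names and whose mean over the 12 LNCaP libraries was 0.5 RPKM or more (reads per kilobase of gene, scaled to the reads of the library). The rule kept 51 of the 78 family rows, out of 44564 rows in all. Of the 27 family rows left out, 9 were listed at 0 in every library. HIST1H2AJ with a mean of 0.562 RPKM and HIST1H3B with 0.569 lay just inside the limit, and HIST1H2AB with 0.485 and HIST1H2BB with 0.417 just outside. The rule read each row's mean level and no difference between groups. Still, 9 members had at least 1 group mean under 0.5 RPKM and passed through the groups where they were higher, so counts over the members are descriptions. These are HIST1H1B, HIST1H2AJ, HIST1H2BE, HIST1H3A, HIST1H3B, HIST1H4B, HIST1H4D, HIST1H4J and HIST1H4K.

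LNCaP is an established, androgen-responsive human prostate cancer epithelial line, labelled wild type here. Cells were grown alone or together with one of 2 kinds of cancer-associated fibroblasts (CAFs), which the labels call CCAFs and CRPCCAFs without spelling either name out. Each culture received DMSO, the solvent, or 1 µM enzalutamide, an androgen receptor antagonist, and all 6 groups were taken at day 7 with 2 biological replicates per group. All groups share 1 cell line and a medium with serum, and the libraries were made from total RNA with a kit that does not mark strand; whether poly(A) selection or rRNA depletion was used, the labels do not say. Labels of the series' separate fibroblast libraries name PtenPC-/-; Trp53PC-/- mice as their source. Whether those are the fibroblasts of the cocultures, and how the 2 cell types were kept apart, the labels leave unsaid.

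Most mRNAs of these genes carry no poly(A) tail. They end shortly after a conserved stem-loop that is bound by SLBP, the stem-loop binding protein, and they are made in S phase under NPAT, the cyclin E-CDK2 substrate that activates histone genes, and are degraded when DNA synthesis stops. A minority of the genes can also be transcribed past the stem-loop into polyadenylated mRNA, which is known from cells that stop dividing or differentiate. Many H2A and H2B genes lie back to back and share one short promoter region.

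The stem-loop was searched as GGNNCTTNTNANNNCC, on the sense strand, in GENCODE v29 transcripts (GRCh38). It was found in 29 of the 51 members. In 21 of them an annotated transcript runs at least 100 bases past it, in 8 it stands near the transcript's end only, and for 22 members the annotated transcripts hold none. Within the last 60 bases of a transcript it occurred in 22 of 19669 protein-coding genes (0.112%), of which 11 belong to the family. The loops of 7 members that the results turn on follow, with the stem-loop in capitals and 5 bases on each side. HIST2H2BE has it at chr1:149886188-149886203 on the minus strand. On chromosome 6 lie those of HIST1H2AC (chr6:26124669-26124684, plus strand), HIST1H2BC (chr6:26123472-26123487, minus), HIST1H3E (chr6:26225596-26225611, plus), HIST1H4E (chr6:26205001-26205016, plus), HIST1H4H (chr6:26285131-26285146, minus) and HIST1H2BN (chr6:27839090-27839105, plus).
HIST2H2BE: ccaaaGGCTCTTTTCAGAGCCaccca
HIST1H2AC: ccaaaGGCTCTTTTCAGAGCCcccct
HIST1H2BC: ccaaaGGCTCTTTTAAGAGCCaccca
HIST1H3E: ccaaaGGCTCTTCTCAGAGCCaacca
HIST1H4E: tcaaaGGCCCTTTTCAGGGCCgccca
HIST1H4H: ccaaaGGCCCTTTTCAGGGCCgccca
HIST1H2BN: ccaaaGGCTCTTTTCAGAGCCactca
Genes that later move in opposite directions under the drug, HIST2H2BE and HIST1H2BN, have the same 16 bases. HIST1H2BN is the exception among the members called lower in each culture. The annotated transcripts of the others, HIST1H1B, HIST1H2BJ, HIST1H2BK and HIST1H2BO, hold no stem-loop. Of the members called higher in each culture, only HIST1H2AK has none. A missing stem-loop depends on where the annotated transcripts end, and it does not show that the gene lacks one.

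RefSeq promoters (GRCh38.p14, 250 bases before to 50 after the start) were matched for 46 of the 51 members and searched on both strands; no motif contains another. The octamer ATTTGCAT, known from H2B promoters as the site of OCT-1 (POU2F1), occurred in 18 of 46 (39.1%) against 1.8% of all 27305 promoters: in 9 of 13 H2B, 8 of 13 H2A and 1 of 7 H3 genes. TATAAA occurred in 65.2% against 12% and CCAAT in 80.4% against 35.7%, with CCAAT in 1 of 10 H4 promoters. AAACACA, the H1 box, was in the promoters of all 3 H1 members and 1 H2A member (8.7% against 5.76%). Neither TTTCCCGC nor TTTGGCGC, both forms of the E2F site, was found in these 46 windows, against 1.66% and 0.659% of all promoters. A match is a description of letters and not a bound site. The 150 bases before the start are shown for 6 members that moved in different directions, with ATTTGCAT, TATAAA and CCAAT matches on either strand in capitals. Their positions are chr6:27132796-27132945 for HIST1H2BJ, chr6:27146859-27147008 for HIST1H2BK, chr1:149886683-149886832 for HIST2H2BE, chr6:26123927-26124076 for HIST1H2BC and chr6:26285535-26285684 for HIST1H4H, all on the minus strand, and chr6:27838419-27838568 on the plus strand for HIST1H2BN.
HIST1H2BJ: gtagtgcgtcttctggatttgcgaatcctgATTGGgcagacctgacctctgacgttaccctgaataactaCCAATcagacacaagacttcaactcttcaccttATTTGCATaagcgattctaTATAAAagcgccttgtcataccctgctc
HIST1H2BK: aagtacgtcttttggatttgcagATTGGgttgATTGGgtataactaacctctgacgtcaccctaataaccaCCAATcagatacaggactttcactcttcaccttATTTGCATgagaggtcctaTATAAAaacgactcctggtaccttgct
HIST2H2BE: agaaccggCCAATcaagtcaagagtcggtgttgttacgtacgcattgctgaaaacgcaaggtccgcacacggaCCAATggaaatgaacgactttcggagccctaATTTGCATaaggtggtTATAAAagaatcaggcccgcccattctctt
HIST1H2BC: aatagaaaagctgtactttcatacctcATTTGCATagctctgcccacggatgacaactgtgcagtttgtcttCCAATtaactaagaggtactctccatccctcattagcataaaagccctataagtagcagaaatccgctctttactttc
HIST1H2BN: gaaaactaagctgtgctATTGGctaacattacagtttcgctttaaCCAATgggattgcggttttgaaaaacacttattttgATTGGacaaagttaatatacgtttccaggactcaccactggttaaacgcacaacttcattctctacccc
HIST1H4H: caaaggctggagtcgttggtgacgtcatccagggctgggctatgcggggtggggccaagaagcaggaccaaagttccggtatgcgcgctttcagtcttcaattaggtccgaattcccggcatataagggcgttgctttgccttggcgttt
The HIST1H2BJ, HIST1H2BK and HIST2H2BE windows each hold 1 octamer and 1 TATAAA, the HIST1H2BC window holds an octamer, and the HIST1H4H window holds none of the 3 motifs.

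Whole reads behind the RPKM values were recovered from their steps and gave 17887012 to 22232861 reads per library. The 10 luminal prostate markers were at 1 RPKM or more in every group. KLK3, the androgen-regulated gene of prostate-specific antigen, stood at 1190 ± 69.4 RPKM alone with DMSO and at 58.5 ± 4.18 with enzalutamide (mean ± SD, n = 2), a log2 change of -4.33. Of 12 fibroblast markers, 9 stayed at or below 0.665 RPKM in every library. The others were FN1, COL1A1 and ACTA2, which LNCaP cells alone also showed. Summed over the 12 markers, RPKM ran from 46.0 to 47.2 alone with DMSO, 78.1 to 83.1 beside CCAFs and 140 to 152 beside CRPCCAFs, most of it FN1 (39.3 RPKM alone with DMSO), and with enzalutamide from 58.4 to 60.2, 64.7 to 65.5 and 193 to 201. FAP was at 0 in both libraries of 2 groups, COL1A2 and POSTN in both of 2 groups each and THY1 in both of 1. The part of fibroblast RNA in the histone results was not tested.

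By symbol, 3 members fall in class H1, 13 in H2A, 16 in H2B, 8 in H3 and 11 in H4. By symbol too, 36 lie in the HIST1 cluster, 12 in HIST2, 2 in HIST3 and 1 is HIST4H4. Whether each row, such as HIST2H3PS2 or HIST2H2BA, codes for a protein was not checked. A few genes carried most of the signal: HIST1H1C and HIST1H2BK together made up 43.5% of the members' summed mean RPKM and the top 10 made up 83.9%. The H1 level was almost wholly HIST1H1C, the gene of histone H1.2, with a mean of 261 RPKM over the 12 libraries, against 4.16 for HIST1H1E and 1.21 for HIST1H1B. HIST1H2BK (184 RPKM), HIST2H2BE (76.5) and HIST1H2BD (45.2) led the H2B genes, and HIST1H2AC (71.1), HIST3H2A (44.4) and HIST1H2AM (14.8) the H2A genes. HIST1H3H (33.5), HIST1H3E (18.4) and HIST1H3D (6.48) led H3. HIST1H4H (81.9) led H4, far above HIST1H4E (5.92) and HIST4H4 (3.75). In all, 14 members had a median of 100 or more reads per library, 26 had 10 to 100 and 11 fewer than 10, so the low ones rest on few reads. The members together took 0.0623% to 0.0867% of a library's reads.

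**Figure D1:**
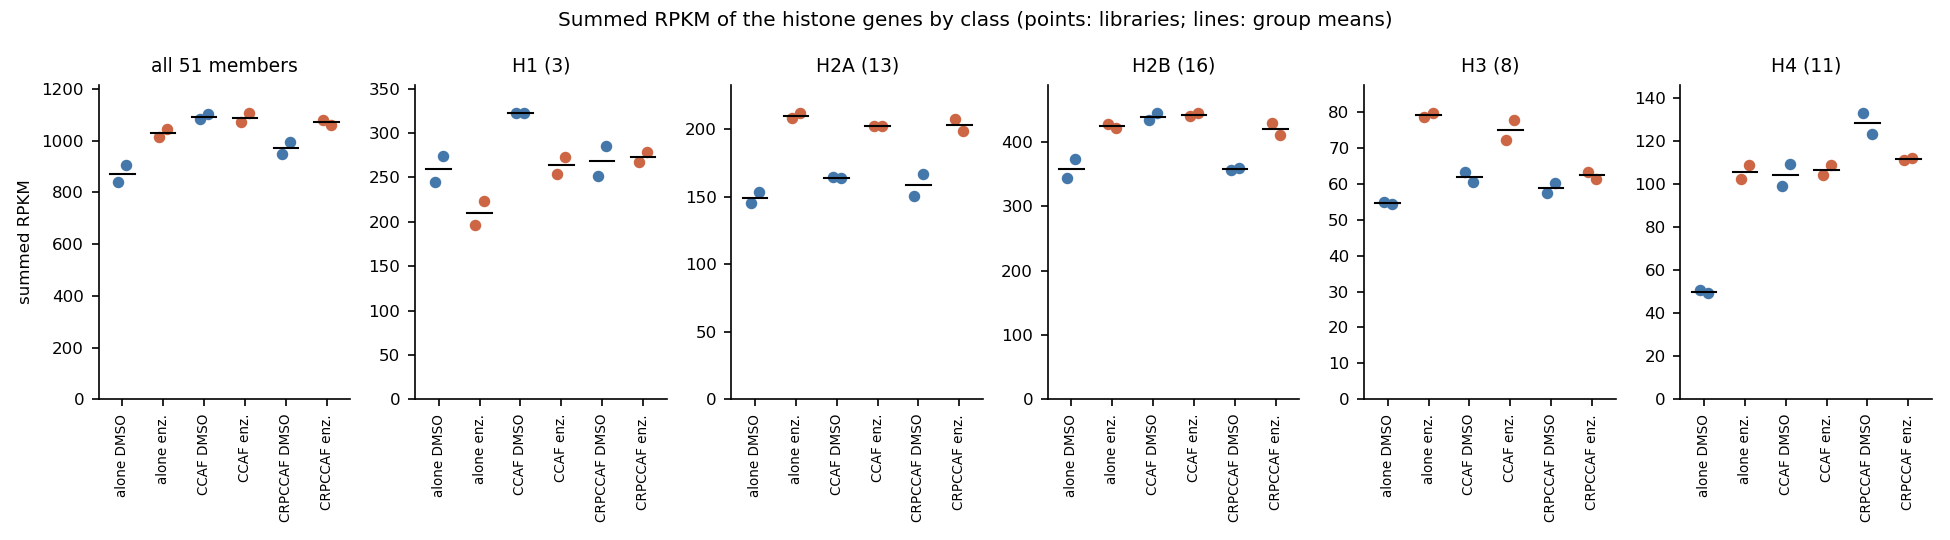
Summed RPKM of all 51 members and of each histone class in each LNCaP library (points, blue DMSO and orange enzalutamide), with group means as lines and the number of genes in parentheses. The H4 sum lay at 49.48 and 50.77 alone with DMSO and at 98.99 or more in the 10 other libraries.

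The summed levels differed in direction between classes and cultures. Over all members they were 838.8 and 904.4 RPKM alone with DMSO and 1014 and 1044 alone with enzalutamide. Beside CCAFs they were 1083 and 1101 with DMSO and 1072 and 1106 with the drug, and beside CRPCCAFs 948.0 and 995.2 against 1079 and 1061. Treated and DMSO libraries of the total thus overlapped beside CCAFs only. The H1 sum, nearly all HIST1H1C, was lower with the drug alone, at 244.5 and 273.9 against 196.9 and 223.0, and beside CCAFs, at 322.0 and 322.3 against 254.3 and 272.4. Beside CRPCCAFs its groups overlapped, at 251.2 and 285.0 against 267.5 and 278.8. The H2A sum was higher with the drug in each culture, at 144.9 and 153.5 against 207.9 and 211.7 alone, 164.2 and 163.8 against 201.9 and 202.5 beside CCAFs, and 150.2 and 166.8 against 207.6 and 198.5 beside CRPCCAFs. The clusters differed as well. HIST2 cluster genes summed to 59.76 and 66.76 alone with DMSO and to 151.4 and 148.6 with the drug, to 78.38 and 86.34 against 128.0 and 131.2 beside CCAFs, and to 76.91 and 72.03 against 123.7 and 123.8 beside CRPCCAFs. HIST1 cluster genes summed to 722.3 and 787.7 against 816.7 and 846.4 alone, to 947.3 and 959.1 against 892.3 and 925.1 beside CCAFs, and to 825.8 and 863.8 against 908.1 and 890.6 beside CRPCCAFs. The HIST1 sum was thus higher with the drug alone and beside CRPCCAFs and lower beside CCAFs. These sums follow the few most abundant genes and were given no test.

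Enzalutamide moved single members in both directions in all 3 cultures, with the H2B genes split between the directions. In cells grown alone, 24 of 51 members passed the threshold (limma, Benjamini-Hochberg adjusted p under 0.05 over 16700 genes), against 53.8% of all genes tested: 16 were higher, against 29.3%, and 8 lower, against 24.5%. Beside CCAFs 19 passed (46.6% of all genes), 10 higher (26.0%) and 9 lower (20.7%). Beside CRPCCAFs 19 passed (53.3% of all genes), 9 higher (29.4%) and 10 lower (23.8%). The members were thus called less often than all genes in each culture. By direction, only their share called higher alone was above that of all genes, and by little. Among the 14 members with a median of 100 or more reads, 10, 9 and 9 passed in the 3 cultures (71.4%, 64.3% and 64.3%), a higher share than over all 51. The share of all genes at that depth is not given here, so the part of read depth was not tested. The members' median log2 change was 0.26, 0.10 and 0.04 in the 3 cultures, beside 0.04, 0.05 and 0.05 over all genes. In bulk libraries, fewer cells making a transcript and less of it per cell cannot be told apart. All changes are on the log2(RPKM + 1) scale, which understates those of low genes.

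**Figure D2:**
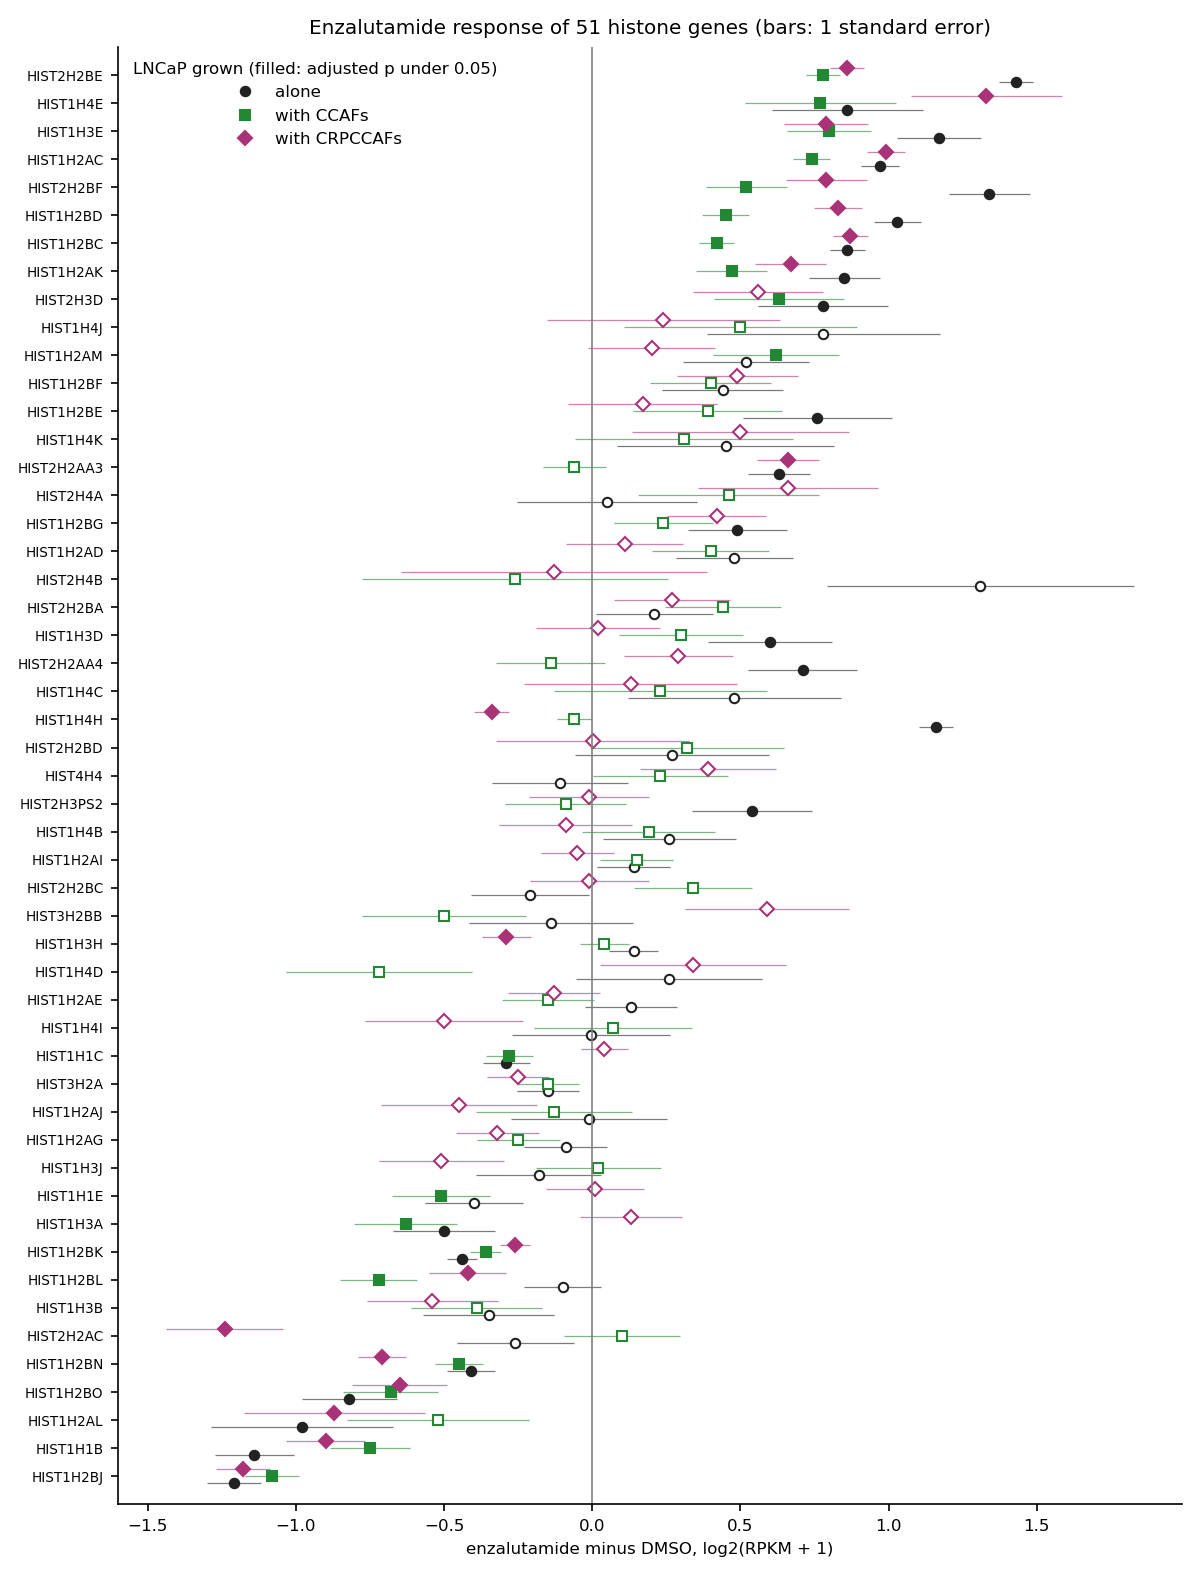
Enzalutamide minus DMSO difference of each of the 51 members on the log2(RPKM + 1) scale, for LNCaP cells alone (black circles), with CCAFs (green squares) and with CRPCCAFs (purple diamonds); bars are 1 standard error and filled symbols passed an adjusted p of 0.05. HIST2H2BE stands at the top with 1.43 alone and HIST1H2BJ at the bottom with -1.21 alone.

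Higher under the drug in all 3 cultures were 8 members: HIST1H2AC, HIST1H2AK, HIST1H2BC, HIST1H2BD, HIST1H3E, HIST1H4E, HIST2H2BE and HIST2H2BF. For this and the later counts across cultures, the share of all genes with the same pattern is not given here. These counts are therefore descriptions. HIST2H2BE, an H2B gene, had the longest counted length of the members, 2223 bases as implied by the RPKM steps. It was at 39.9 and 44.8 RPKM alone with DMSO and at 117 and 114 with enzalutamide. Beside CCAFs it was at 56.3 and 57.2 with DMSO and at 96.7 and 99.4 with the drug. Beside CRPCCAFs it was at 54.2 and 49.5, then 96.1 and 93.1. Every treated library lay above every DMSO library. The log2 changes were 1.43 ± 0.0571 (SE, adjusted p = 4.4e-08), 0.78 (adjusted p = 4.6e-06) and 0.86 (adjusted p = 1.5e-06). Alone, this was 2.72-fold.

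HIST1H2AC and HIST1H2BC, an H2A and an H2B gene that start 245 bases apart on opposite strands, rose together. HIST1H2AC was at 46.6 and 54.2 RPKM alone with DMSO and at 96.4 and 103 with the drug, at 49.3 and 50.7 against 83.4 and 85.0 beside CCAFs, and at 47.9 and 46.8 against 97.5 and 92.4 beside CRPCCAFs. Its DMSO levels overlapped between cultures, and no treated library came near them. Its log2 changes were 0.97, 0.74 and 0.99 (adjusted p = 1.3e-06, 1.3e-05 and 1.2e-06). HIST1H2BC was at 27.5 and 28.8 alone with DMSO against 53.7 and 50.1, at 35.5 and 36.5 against 47.2 and 49.8 beside CCAFs, and at 29.8 and 26.7 against 53.7 and 50.7 beside CRPCCAFs. The CCAF culture started higher and ended slightly lower. The changes of HIST1H2BC were 0.86, 0.42 and 0.87 (adjusted p = 1.7e-06, 0.00031 and 1.7e-06).

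HIST1H2BD, another H2B gene, was at 23.7 and 27.7 RPKM alone with DMSO and 56.1 and 50.5 with enzalutamide, a change of 1.03 (adjusted p = 4.3e-06). It changed by 0.45 beside CCAFs and 0.83 beside CRPCCAFs, where it reached its highest values, 71.7 and 67.2. HIST1H3E, an H3 gene, was at 10.4 and 14.9 against 30.9 and 27.6 alone, and changed by 1.17, 0.80 and 0.79 (adjusted p = 8.6e-05, 0.0013 and 0.0011). HIST2H2BF, an H2B gene with exons that overlap FCGR1A in GENCODE, was at 1.47 and 1.78 against 6.06 and 5.23 alone, and changed by 1.34, 0.52 and 0.79. HIST1H4E, an H4 gene with 16 to 79 reads per library, changed by 0.86, 0.77 and 1.33, and HIST1H2AK by 0.85, 0.47 and 0.67. Some of these calls rested on single libraries. That of HIST1H4E alone was lost without DMSO replicate 1, DMSO replicate 2 or enzalutamide replicate 2 of that culture, and the CCAF calls of HIST1H4E, HIST2H2BF and HIST1H2AK were each lost without 1 CCAF library with DMSO and without 1 with the drug.

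Called lower under the drug in all 3 cultures were 5 members: the H2B genes HIST1H2BJ, HIST1H2BK, HIST1H2BN and HIST1H2BO, and HIST1H1B, which rests on few reads. HIST1H2BJ was at 11.9 and 13.7 RPKM alone with DMSO and at 4.65 and 5.33 with enzalutamide, at 17.3 and 17.7 against 8.23 and 7.24 beside CCAFs, and at 9.76 and 8.74 against 3.37 and 3.70 beside CRPCCAFs. Treated and DMSO libraries did not overlap in any culture, and the CCAF culture was highest under both conditions. The log2 changes were -1.21 ± 0.0912 (adjusted p = 3.4e-06), -1.08 (1.1e-05) and -1.18 (4.2e-06). HIST1H2BK, the most abundant H2B gene, was at 196 and 213 alone with DMSO against 149 and 152, at 235 and 238 against 183 and 186 beside CCAFs, and at 171 and 185 against 152 and 144 beside CRPCCAFs. The falls of HIST1H2BK were smaller, by 0.44, 0.36 and 0.26 on the log2 scale (adjusted p = 6.4e-05, 0.00036 and 0.0019).

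HIST1H1B, the gene of histone H1.5, which is known for expression in dividing cells, was at 1.51 and 1.95 RPKM alone with DMSO and at 0.189 and 0.285 with the drug. Beside CCAFs it was at 2.42 and 1.93 against 0.751 and 1.02, and beside CRPCCAFs at 1.96 and 1.57 against 0.495 and 0.451. HIST1H1B is among the lowest members, with 3 to 37 reads per library and 3 and 5 in the treated libraries grown alone. Its treated means alone and beside CRPCCAFs, 0.237 and 0.473 RPKM, are under the limit of the rule, so it is a member only through its other groups, and its values are given as a description. HIST1H1C was at 239 and 268 alone with DMSO and at 194 and 219 with the drug. It fell by 0.29 alone and 0.28 beside CCAFs and stood at 0.04 beside CRPCCAFs (adjusted p above the threshold). The HIST1H1C calls were lost without DMSO replicate 2 or enzalutamide replicate 1 alone, and without either DMSO library or enzalutamide replicate 1 beside CCAFs.

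HIST1H2BN was at 12.3 and 11.4 RPKM alone with DMSO and 9.08 and 8.31 with enzalutamide, and fell by 0.41, 0.45 and 0.71 (adjusted p = 0.002, 0.0013 and 5.7e-05). HIST1H2BO, with 6 to 34 reads per library, fell by 0.82, 0.68 and 0.65; its CCAF call was lost without CCAF DMSO replicate 2 and its CRPCCAF call without CRPCCAF DMSO replicate 2 and with limma voom. A further 7 members were lower in 1 or 2 cultures: HIST1H1C, HIST1H1E, HIST1H2AL, HIST1H2BL, HIST1H3A, HIST1H3H and HIST2H2AC. Among these, HIST2H2AC was at 2.78 and 2.84 RPKM beside CRPCCAFs with DMSO and at 0.768 and 0.466 with the drug, a change of -1.24 (adjusted p = 0.00051). HIST1H2AL was at 2.76 and 2.70 alone with DMSO and at 0.318 and 1.72 with the drug, a change of -0.98 whose call was lost without either DMSO library or enzalutamide replicate 1. HIST1H2BL fell by 0.72 beside CCAFs (adjusted p = 0.0014).

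Another 8 members were higher in 1 or 2 cultures, and 22 passed in none. Among those that passed in none was HIST3H2A, an abundant H2A gene, at 48.3 and 44.3 RPKM alone with DMSO and at 40.0 and 43.3 with enzalutamide. Its neighbour HIST3H2BB was at 3.35 and 3.11 against 2.97 and 2.69. HIST1H2AI, HIST1H2AG and HIST1H2AE, H2A genes of moderate level, also did not pass in any culture. HIST1H3H, the highest H3 gene, stood between 27.2 and 37.1 RPKM in all 12 libraries and fell by 0.29 beside CRPCCAFs (adjusted p = 0.015), a call lost without CRPCCAF DMSO replicate 2 or enzalutamide replicate 1.

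**Figure D3:**
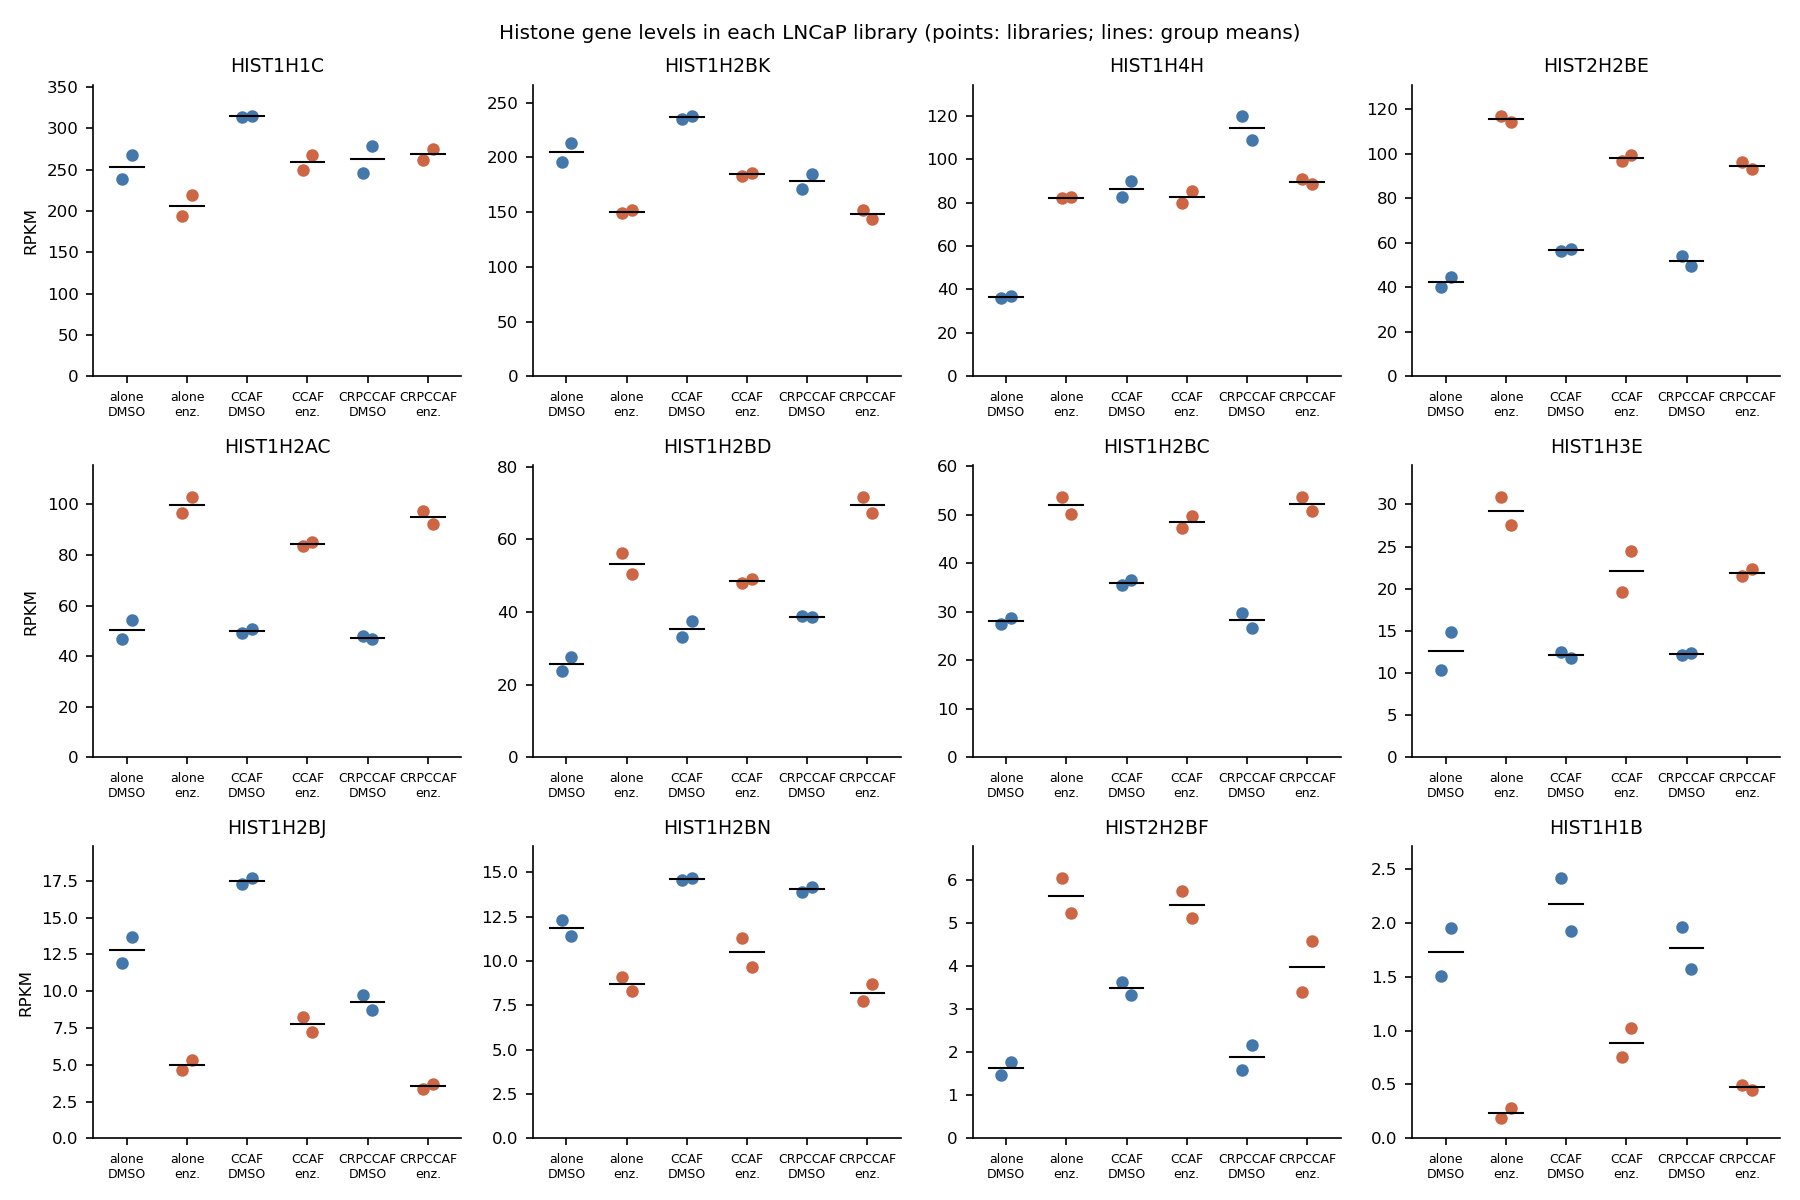
RPKM of 12 members in each LNCaP library (points, blue DMSO and orange enzalutamide; lines are group means; each axis starts at 0). HIST2H2BE and HIST1H2AC are higher in every treated group, HIST1H2BJ and HIST1H1B lower, and HIST1H4H is low only in the 2 libraries grown alone with DMSO, at 35.9 and 36.9. HIST1H1B rests on few reads, and its treated means alone and beside CRPCCAFs, 0.237 and 0.473 RPKM, are under the limit of the rule.

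HIST1H4H, the main H4 gene, changed in both directions. It was at 35.9 and 36.9 RPKM alone with DMSO and at 82.1 and 82.6 with enzalutamide, a change of 1.16 ± 0.0579 (adjusted p = 2e-07). Beside CCAFs it was at 82.4 and 89.8 with DMSO and at 79.6 and 85.5 with the drug, a difference of -0.06 that did not pass. Beside CRPCCAFs it was at 120 and 109 with DMSO and at 91.0 and 88.4 with the drug, a change of -0.34 (adjusted p = 0.00075). Among 6 groups, alone with DMSO was thus the low one, and the other 5 lay between 79.6 and 120. The drug effect differed from that alone by -1.21 beside CCAFs (adjusted p = 4.3e-05) and by -1.50 beside CRPCCAFs (adjusted p = 2e-05). Every one of these calls held under each alternative run. The counted length of HIST1H4H was 374 bases, although GENCODE holds a transcript of it that runs 1655 bases past the stem-loop.

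The list of 8 histone genes known for polyadenylated transcripts holds HIST1H1C, HIST1H2AC, HIST1H2BC, HIST1H2BD, HIST1H2BG, HIST1H2BK, HIST1H4H and HIST2H2BE, most of which rank among the most abundant members here. With enzalutamide alone 6 of the 8 were higher and 2 lower, with a median change of 0.92, where 29.3% of all genes were higher and 24.5% lower. Beside CCAFs 4 were higher and 2 lower (median 0.33), where all genes had 26.0% and 20.7%, and beside CRPCCAFs 4 and 2 (median 0.62), where all genes had 29.4% and 23.8%. The other 43 members had 10 higher and 6 lower (median 0.14), 6 and 7 (0.07), and 5 and 8 (0.01). The list and the rest differ in read depth, and the 14 members with a median of 100 or more reads had medians of 0.56, 0.23 and 0.03. Every gene of the list but HIST1H2BG is among these 14, so their medians cannot separate read depth from the list. HIST1H2BK, whose counted length of 887 bases is long for an H2B gene, was lower in each. HIST1H2BG was at 5.96 and 7.23 against 9.95 and 9.30 alone, a change of 0.49 (adjusted p = 0.033) that was lost without DMSO replicate 1 or either drug library, with median-of-ratios scaling and with no filter on low values. Grouped by annotation, the 21 members with a transcript past the stem-loop had 9 higher and 1 lower alone, 6 and 1 beside CCAFs, and 6 and 3 beside CRPCCAFs (medians 0.44, 0.32 and 0.39). The 8 with the stem-loop near the transcript's end only had 3 and 0, 1 and 1, and 2 and 1 (medians 0.45, 0.05 and 0.09). The 22 members without an annotated stem-loop had 4 and 7, 3 and 7, and 1 and 6 (medians -0.10, -0.11 and 0.01). The all-gene shares above stand beside these counts too. The classes depend on where the annotated transcripts end and do not measure the transcript ends in these cells. HIST1H1C and HIST1H2BK of the list fall in the last class, and HIST1H2BD in the one before it.

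In 10 pairs of members the starts lie under 600 bases apart on opposite strands, so that 1 short stretch holds both promoters. HIST1H2BF is counted both with HIST1H2AD and with HIST1H3D, each 222 bases away, so these pairs share 1 stretch. HIST1H2AC and HIST1H2BC were both called higher in each culture. The group means of HIST1H2AD and HIST1H2BF were also both higher with the drug in each culture, but neither gene was called. Some other pairs differed. HIST1H2AK and HIST1H2BN start 193 bases apart, and the printed HIST1H2BN window lies between them. HIST1H2AK was at 7.64 and 6.79 RPKM alone with DMSO and at 15.1 and 12.6 with enzalutamide, while HIST1H2BN was lower. Their changes were 0.85 and -0.41 alone, 0.47 and -0.45 beside CCAFs, and 0.67 and -0.71 beside CRPCCAFs. Exons of the pair overlap each other in GENCODE, and without strand in the library, reads of the 2 genes may not be fully told apart.

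HIST2H2AC and HIST2H2BE start 235 bases apart, and beside CRPCCAFs the first changed by -1.24 and the second by 0.86. The HIST2H2AC value rests on 6 and 4 reads in the treated libraries, and the gene shares 30.5% of its 50-base stretches with other genes. Its libraries overlapped alone, at 1.86 and 2.38 RPKM with DMSO against 2.16 and 1.13 with the drug. They also overlapped beside CCAFs, at 1.18 and 1.68 against 1.36 and 1.84. HIST1H2AG and HIST1H2BJ start 247 bases apart: HIST1H2BJ fell in each culture, and HIST1H2AG, at 6.95 and 6.91 against 7.09 and 5.87 alone, passed in none, with differences of -0.09, -0.25 and -0.32. HIST1H2AM changed by 0.62 beside CCAFs and its neighbour HIST1H2BO by -0.68, but the HIST1H2AM call was lost without CCAF DMSO replicate 1 or 2 or enzalutamide replicate 2, and with median-of-ratios scaling. The differences between neighbours were not themselves tested.

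**Figure D4:**
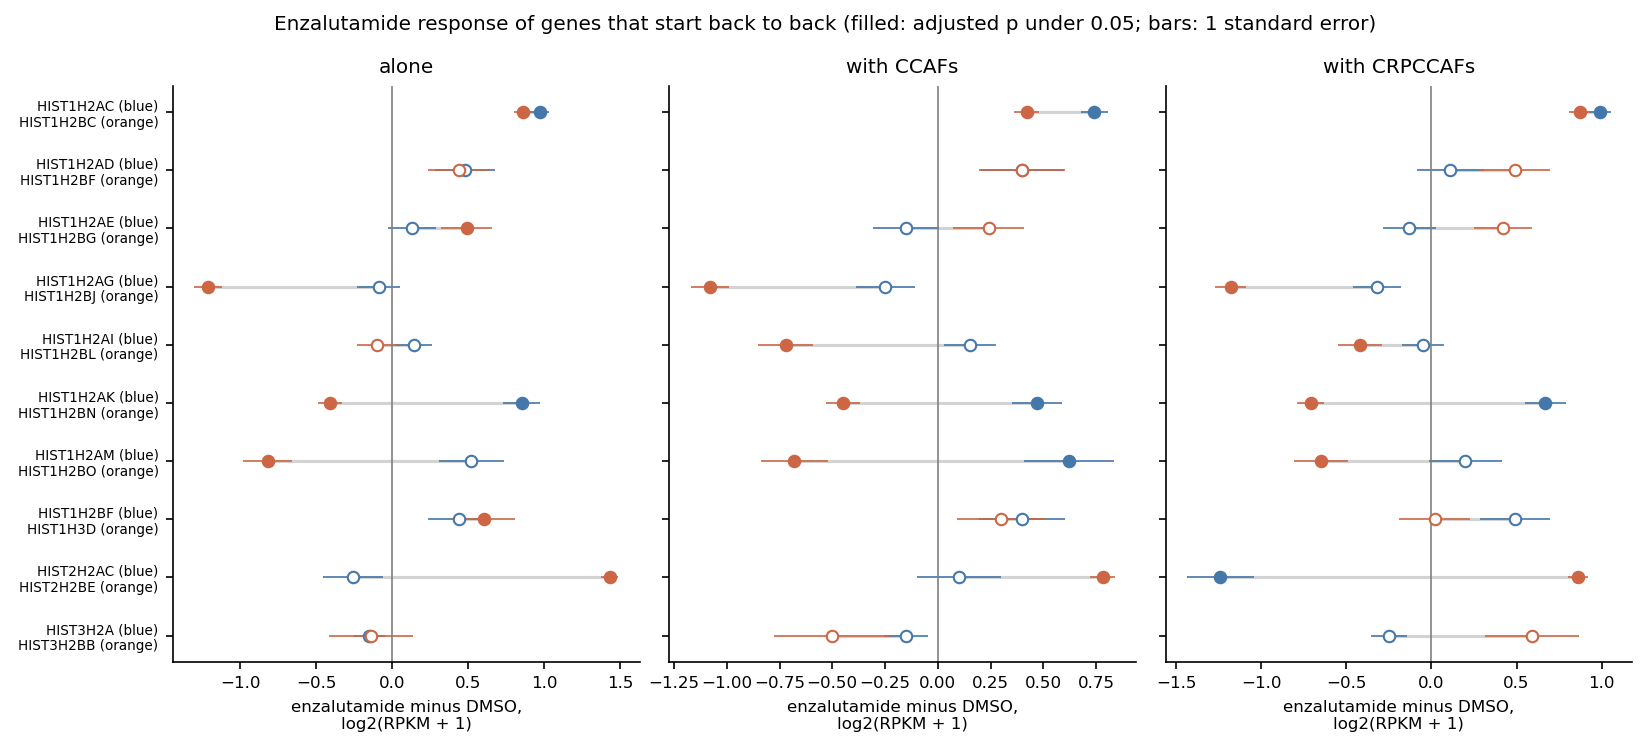
Enzalutamide minus DMSO difference on the log2(RPKM + 1) scale for the 10 pairs of members that start back to back, in the 3 cultures (blue first gene, orange second gene; bars are 1 standard error; filled symbols passed an adjusted p of 0.05). HIST1H2AK and HIST1H2BN lie on opposite sides of 0 in each culture, at 0.85 and -0.41 alone. HIST1H2BF is shown both with HIST1H2AD and with HIST1H3D.

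Genes of DNA replication, the process that normally goes with histone supply, fell together in the same libraries. All 22 genes of the list were lower in each culture, with median changes of -2.08 alone, -1.03 beside CCAFs and -1.91 beside CRPCCAFs. Of all genes, 24.5%, 20.7% and 23.8% were lower. RRM2, a subunit of the enzyme that makes deoxynucleotides, went from 66.6 and 69.4 RPKM to 5.68 and 6.30 alone, a change of -3.30 (adjusted p = 8.6e-10). The list summed to 823 to 833 RPKM alone with DMSO and to 183 to 189 with the drug, then 784 to 788 and 367 to 369 beside CCAFs, and 642 to 650 and 156 to 157 beside CRPCCAFs. The 51 histone members showed no such common direction, as given above. Whether these libraries capture histone mRNA without a poly(A) tail is unknown, so its levels may be missed here. Whether that mRNA followed the DNA replication genes was not tested. MCM4 (helicase), PCNA (sliding clamp) and FEN1 (flap nuclease) fell alone by 2.16, 1.93 and 2.24.

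Of 8 genes for histone gene transcription, 5 fell in each culture, with medians of -0.61, -0.40 and -0.37. E2F1, the S phase transcription factor, changed by -2.37, -0.99 and -2.39, and CDK2 by -1.47, -0.72 and -1.22. NPAT stood at 6.0 and 6.26 RPKM alone with DMSO and at 5.65 and 4.99 with the drug (-0.18, not passed), and HINFP, the H4 gene activator, and POU2F1 also did not pass. Of 12 genes of histone mRNA 3′ end formation, translation and decay, 7 fell and 1 rose alone, 5 and 2 beside CCAFs, and 6 and 2 beside CRPCCAFs. SLBP, which binds the printed stem-loop, went from 51.8 and 48.8 to 23.0 and 27.8 alone and changed by -0.97, -0.77 and -1.02 (adjusted p = 3.6e-06, 2.5e-05 and 2.7e-06). ERI1, an exonuclease that trims histone mRNA ends, changed by -0.72, -0.24 and -0.31.

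Histone chaperones fell in most cases: 15 of 17 alone, 14 beside CCAFs and 13 beside CRPCCAFs, with ATRX the 1 that rose in each. For these and the variants below, the all-gene shares were 24.5%, 20.7% and 23.8% lower and 29.3%, 26.0% and 29.4% higher. ASF1B, which hands H3-H4 to the assembly factors, changed by -2.66, -1.09 and -2.87, CHAF1A by -1.29, -0.74 and -1.40, and NASP, the H3-H4 store, by -1.01, -0.54 and -0.72. Of the 11 replication-independent histone variants, 3 rose and 8 fell alone, 2 and 6 beside CCAFs, and 3 and 7 beside CRPCCAFs. H2AFZ, the gene of H2A.Z, was at 651 and 617 RPKM alone with DMSO and at 254 and 275 with the drug, and changed by -1.26, -0.85 and -1.19. H2AFX changed by -1.80, -0.85 and -1.84. H3F3A, one of 2 genes of H3.3, rose by 0.13, 0.24 and 0.26.

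Beside CCAFs with DMSO, single members were higher than in cells alone. The 9 that passed (8.9% of all genes) were all higher (5.2% of all genes): HIST1H4H, HIST2H2BF, HIST2H2AA3, HIST1H2BD, HIST1H2BJ, HIST2H2BE, HIST1H2BC, HIST1H1C and HIST1H2BK. The median difference of the members was 0.29, beside -0.01 over all genes, and 6 of the 9 are on the list of polyadenylated histone genes. HIST1H4H differed by 1.22 ± 0.0579 (adjusted p = 2.1e-06), which was 2.36-fold. HIST2H2BE differed by 0.42 (adjusted p = 0.0018) and HIST2H2AA3, at 2.53 and 2.71 RPKM alone and 4.55 and 5.11 beside CCAFs, by 0.68 (adjusted p = 0.0037). These 3 held under each alternative. HIST2H2BF differed by 0.77 and HIST1H2BD by 0.45. The calls of the other 6 were lost without alone DMSO replicate 1, and the count went from 9 to 4 without that library and to 5 without either CCAF library with DMSO. The summed fibroblast markers were higher beside CCAFs too, as given above, through FN1; their part in the histone differences was not tested.

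Beside CRPCCAFs with DMSO, 8 members passed against cells alone (29.3% of all genes), 6 higher (13.7%) and 2 lower (15.6%), with a median of 0.13 beside -0.02 over all genes. HIST1H4H differed by 1.62 (adjusted p = 7.8e-08), HIST1H2BD by 0.58 (adjusted p = 0.00066) and HIST2H2BE by 0.29 (adjusted p = 0.0049), and these 3 held under each alternative. HIST1H2AE, at 4.70 and 4.42 RPKM alone and 6.86 and 8.98 beside CRPCCAFs, differed by 0.67, HIST1H2BG by 0.55 and HIST2H2AA3 by 0.37. HIST1H2BJ was lower by 0.43 and HIST1H2BK by 0.20. The calls of HIST1H2AE, HIST1H2BG, HIST2H2AA3, HIST1H2BJ and HIST1H2BK were each lost without alone DMSO replicate 2, and the count was then 4. In the same comparison 20 of the 22 DNA replication genes were lower, with a median of -0.35, PCNA by -0.39 and CCNA2 by -0.64.

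The 2 fibroblast kinds differed most for HIST1H2BJ. With DMSO, 5 members passed between CRPCCAF and CCAF cultures (12.6% of all genes), HIST1H4H higher (6.63%) and 4 lower (5.99%), with a median of -0.13 beside -0.01 over all genes. HIST1H2BJ differed by -0.85 (adjusted p = 0.00043), HIST1H2BK by -0.41 (adjusted p = 0.0011), HIST2H2BF by -0.64 and HIST1H2BC by -0.34, while HIST1H4H differed by 0.40 (adjusted p = 0.0022). The calls of HIST2H2BF and HIST1H2BC were lost without CCAF DMSO replicate 2, which left 3. With enzalutamide, 9 passed (30.8% of all genes), 2 higher (13.2%) and 7 lower (17.6%), with a median of -0.13. HIST1H2BJ differed by -0.94 (adjusted p = 5e-05), HIST1H2BK by -0.32 (adjusted p = 0.0013), HIST1H3H by -0.40 and HIST1H2BD by 0.51 (adjusted p = 0.0012), and these 4 held under each alternative. The count went from 9 to 5 without CCAF enzalutamide replicate 1. In that contrast all 22 DNA replication genes were lower, with a median of -1.18.

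**Figure D5:**
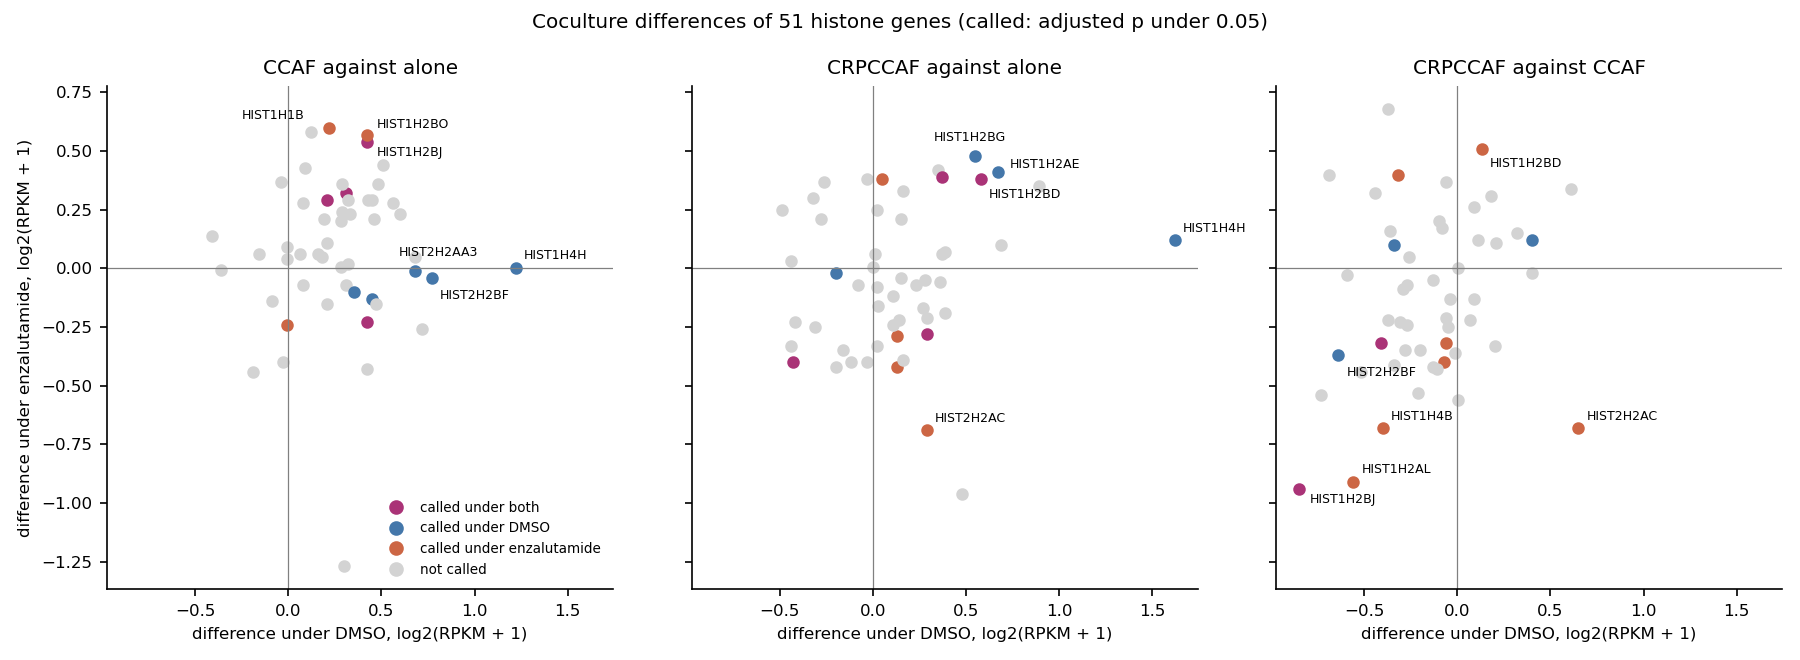
Difference between cultures of each member under DMSO (horizontal) and under enzalutamide (vertical), both on the log2(RPKM + 1) scale, for 3 pairs of cultures; colours show under which condition the member passed an adjusted p of 0.05. HIST1H4H lies far right against cells alone, at 1.22 and 1.62, and near 0 on the vertical axis, while HIST1H2BJ is low on both axes between CRPCCAF and CCAF cultures, at -0.85 and -0.94.

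With enzalutamide, the cocultures differed from treated cells alone in a few members. Beside CCAFs 7 passed (18.6% of all genes), 5 higher (11.5%) and 2 lower (7.16%), with a median of 0.06 beside 0.01 over all genes. HIST1H2BJ was higher by 0.54 (adjusted p = 0.0031) and HIST1H2BK by 0.29 (adjusted p = 0.004), both under each alternative. HIST1H1B, with 3 and 5 reads in the treated libraries grown alone, had a mean of 0.237 RPKM there, under the limit of the rule. As a description only, it was higher by 0.60. HIST1H2BO was higher by 0.57 and HIST1H1C by 0.32, and HIST1H2AC and HIST2H2BE were lower by 0.24 and 0.23. The calls of these 5 members were all lost without alone enzalutamide replicate 1, which left 2, and the count was 4 without either CCAF library. The DNA replication list moved the same way as HIST1H2BJ here, with 22 of 22 genes higher and a median of 0.94. With DMSO, HIST1H2BJ was called higher beside CCAFs too, with group means of 17.5 against 12.8 RPKM alone. There 0 of the 22 DNA replication genes were higher and 2 lower, with a median of -0.07.

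Beside CRPCCAFs 8 passed against treated cells alone (34.5% of all genes), 3 higher (15.8%) and 5 lower (18.7%), with a median of -0.06 beside -0.03 over all genes. HIST1H1C and HIST1H2BD were each higher by 0.38 (adjusted p = 0.0051 and 0.0056) and HIST2H2BE lower by 0.28 (adjusted p = 0.0041), and these 3 held under each alternative. HIST2H2AA3 was higher by 0.39. HIST2H2AC differed by -0.69, HIST2H2BF by -0.42, HIST1H2BJ by -0.40 and HIST1H3H by -0.29. The count went from 8 to 5 without alone enzalutamide replicate 2.

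The drug effect itself was compared between cultures. Against cells alone, it differed beside CCAFs for 6 members (6.59% of all genes), all downward, with a median of -0.12 beside 0.01 over all genes. Of all genes, 4.27% differed upward and 2.32% downward. Besides HIST1H4H these members were HIST2H2BF, HIST2H2AA3, HIST2H2BE, HIST1H2BD and HIST1H2BC. Each was higher beside CCAFs than alone with DMSO, and their drug effects beside CCAFs ran from -0.06 to 0.78. The DMSO difference enters the contrast of drug effects with a minus sign, so it is not a separate observation. HIST1H4H and HIST2H2BE (-0.65, adjusted p = 0.0013) kept the call under each alternative. The other 4 lost it in several, and without alone DMSO replicate 1 or CCAF DMSO replicate 2 the count was 2 and without CCAF enzalutamide replicate 1 it was 3. Over the same contrast 20 of 22 DNA replication genes differed upward, with a median of 1.07.

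Beside CRPCCAFs the effect differed from that alone for 2 members (6.57% of all genes), HIST1H4H and HIST2H2BE (-0.57, adjusted p = 0.0031), both downward, with a median of -0.20 beside -0.0049 over all genes. Of all genes, 3.44% differed upward and 3.13% downward. Between the 2 cocultures it differed for 3 (6.13% of all genes), HIST1H2BC and HIST2H2AA3 upward (2.27%) and HIST2H2AC downward (3.86%). The latter 3 calls rested on single libraries, and without any one of CCAF DMSO replicate 2, the CCAF enzalutamide libraries or CRPCCAF enzalutamide replicate 2 only 1 remained called.

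Sequence shared between family members limits single values. In GENCODE, 39 of the 51 members share at least 1 stretch of 50 bases with another gene, and 15 share at least 50% of their stretches. HIST1H2BK shares 74.1%, HIST2H2AA3 all of them and HIST2H2AA4 97.1%, since the latter 2 are near-identical copies; HIST1H2BJ shares 4.65%, HIST2H2BE 8.11%, HIST1H2AC 0.421%, and HIST1H4H and HIST1H1B none. Exons of 14 members overlap another gene. The labels do not say how reads with several matching places were counted, so values of shared genes are uncertain. Outside the family, the rows most like the members' mean log2 level over the 12 libraries were SRPRA (Pearson r = 0.913), THAP8 (0.89) and DBNL (0.886); these are descriptions over libraries that share groups.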

How the data were processed

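The LNCaP table holds RPKM per gene as deposited by the authors. HISAT2, HTSeq, DESeq2 and the builds hg19 and mm10 stand in the submitters' processing notes, with no role or version. The 12 fibroblast libraries are not used here. Of 44591 rows, 27 named as dates were dropped. Whole reads were recovered from RPKM steps for 25004 of 25005 genes above 0 in at least 6 libraries (values within 0.05 reads of a whole number). The main test was limma 3.58.1 in R 4.3.3 with a mean-variance trend on log2(RPKM + 1), over 16700 genes with a mean of 0.5 RPKM or more, all 6 groups in 1 fit (6 residual degrees of freedom), two-sided, with Benjamini-Hochberg adjustment within each of 12 comparisons. It was tested on simulated data. The labels state biological replicates.

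Alternatives were a pseudocount of 0.1, a filter of 1 RPKM in 2 libraries, no filter, median-of-ratios scaling, a replicate block, limma voom on recovered reads, and leaving out each library. Equal replicate numbers did not pair libraries (correlations of deviations -0.0646 to 0.0855 over 15 pairs of groups). Named genes were the 3 highest members per class, the 4 largest called changes in each direction per comparison, the rows at the limit of the rule, the polyadenylated list, up to 4 called genes of smallest p per other list, KLK3, and the 3 rows most alike; members named beside these, such as those of divergent pairs, were chosen after their values were seen. The members and lists were chosen with earlier results of these data known.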

Additional observations from a re-analysis of the deposited data

Results flagged for a closer look

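The response to enzalutamide differed between cultures, by a test of the difference itself (limma, adjusted p under 0.05), for 7 members; values are differences of log2(RPKM + 1) changes. Between CCAF culture and cells alone the difference was -1.21 for HIST1H4H, -0.82 for HIST2H2BF, -0.70 for HIST2H2AA3, -0.65 for HIST2H2BE, -0.58 for HIST1H2BD and -0.44 for HIST1H2BC. Between CRPCCAF culture and cells alone it was -1.50 for HIST1H4H and -0.57 for HIST2H2BE. Between CRPCCAF and CCAF cultures it was 0.72 for HIST2H2AA3, 0.45 for HIST1H2BC and -1.34 for HIST2H2AC, a gene with 4 to 23 reads per library. HIST1H4H and HIST2H2BE kept both of their calls under each alternative run, and each of the others lost its call without at least 1 single library.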

How the results depend on the processing

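No called result changed direction under the alternatives. The counts of called members under enzalutamide stayed between 17 and 25 alone (24 in the main analysis), 14 and 19 beside CCAFs (19) and 17 and 22 beside CRPCCAFs (19). With no filter on low values, which puts 33693 genes in the test, the counts fell to 3 from 7 for CCAF against alone with enzalutamide, to 5 from 8 for CRPCCAF against alone with enzalutamide, to 3 from 6 for the difference of drug effects between CCAF culture and cells alone, and to 1 from 3 for that between the cocultures. Leaving out each library in turn gave 4 to 9 members for CCAF against alone with DMSO, 4 to 8 for CRPCCAF against alone with DMSO, 3 to 7 for CRPCCAF against CCAF with DMSO, and with enzalutamide 2 to 5, 5 to 7 and 5 to 7 for the same 3 pairs. It gave 2 to 5, 2 to 3 and 1 to 4 for the 3 differences of drug effects. With 1 library left in a group, that library is assumed to vary like the others. The replicate block, run although the numbers do not pair the libraries, moved no count by over 1.5 times: it gave 25, 19 and 21 members for the drug in the 3 cultures. On recovered reads, limma voom called 25, 18 and 19. Depth limits the 11 members with a median under 10 reads.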
